A study of Mus musculus with 6 samples.

Results

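The complement system was examined through 32 of its components and regulators, chosen by name from a list, out of 48353 genes annotated in the 6 libraries. The C1q chains, which macrophages make, are not among the 32. Hepatocytes, the parenchymal cells of the liver, came from 3 Bim knock-out and 3 wild-type samples. In the knock-out mice floxed Bim (symbol Bcl2l11, a pro-apoptotic gene) was removed with Alb-Cre, a recombinase under the promoter of albumin, a hepatocyte gene. The wild-type samples carry no further description, and whether they held the floxed alleles or Cre is not given in the labels. All samples were of the C57BL/6 strain, and livers were perfused with collagenase to free the cells. The protocol names regular chow and a high-fat diet, but the labels give neither the diet nor the age of a sample. The labels do not say whether each sample is a different animal. The p-values therefore rest on the spread among these 6 samples alone, and that spread may be technical.

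Complement is a cascade of plasma proteins, most of them made by hepatocytes, that marks microbes and damaged cells for removal. It starts from antibody through C1 (the classical pathway), from sugars bound by lectins such as mannose-binding lectin (the lectin pathway), or by slow spontaneous activation of C3 (the alternative pathway). All routes cleave C3 and then C5, after which the terminal components assemble a pore in the target membrane. Plasma and membrane regulators protect the body's own cells, and small fragments of C3 and C5 act on receptors of myeloid cells.

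The libraries held 28245264, 27665120 and 25335211 estimated reads in knock-out replicates 1 to 3, against 28258773, 31130519 and 28131355 in wild-type replicates 1 to 3. Levels are given below as RPM (estimated reads per 1000000 estimated reads of the library), which are not scaled to transcript length, or as the deposited RPKM, which are. The hepatocyte label was borne out by Alb, at 29260 to 46028 RPM in knock-out and 22306 to 50868 RPM in wild-type libraries. The targeted gene, Bcl2l11, had 0 reads in each knock-out library and 0, 680 and 478 reads in wild-type replicates 1 to 3, so wild-type replicate 1 could not be told from a knock-out by this gene, though a 0 can be a failed estimate. The protocol speaks of male mice, whereas Xist, the RNA made from the inactive X chromosome of females, stood at 888 to 1110 RPM in knock-out and at 936 to 1377 RPM in wild-type libraries. Ddx3y, Kdm5d, Eif2s3y and Uty of the Y chromosome were listed at 0 in all 6, which goes against that description in every library.

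Wild-type replicate 1 stood apart from the other 5 libraries. The summed level of 12 macrophage and Kupffer cell markers was 85.3, 67.3 and 141 RPKM in knock-out, against 4211, 114 and 129 RPKM in wild-type replicates 1 to 3, and all 12 markers were highest in wild-type replicate 1. Of 9 hepatocyte markers read in every library, 6 were lowest in it in RPM, as were 19.6% of the 6920 fully read genes. Of the others, Alb was lowest in wild-type replicate 3 and Serpina1a in knock-out replicate 3. Cyp2e1 went the other way, highest in wild-type replicate 1 at 504 RPM. The 5 biliary markers summed to 9.09, 509.9 and 189.9 RPKM in knock-out, against 353, 123 and 152 RPKM in wild-type, in no order by genotype. The swing of this sum was that of Spp1, at 0, 503.6 and 183 RPKM in knock-out, against 345, 112 and 146 RPKM in wild-type. Krt7 and Krt19 were listed at 0 in all 6 libraries, while Sox9 had 5.68 to 10.8 RPKM and Epcam at most 0.448 RPKM. The defining markers of stellate cells (6 of 6) and of granulocytes (7 of 8) were listed at 0 in all libraries, as were 4 of 7 endothelial and 5 of 7 adipocyte markers. In bulk samples fewer cells of a type and less RNA per cell cannot be told apart. Differences on log2(RPM + 1) of the fully read members are also given without wild-type replicate 1.

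A value of exactly 0 in these files can be a failed estimate. This was counted over loci read in at least 3 libraries, with a median above 100 reads among the libraries above 0. Exact zeros made up 18.0% of the values where such a locus had 2 or more transcripts, and 0.0156% where it had 1. Of the 32 complement genes, 16 were above 0 in all 6 libraries, 11 in some, and 5 in none. Those 16 are called fully read here, and for the others the value of each library is given with no mean or fold change.

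**Figure D1:**
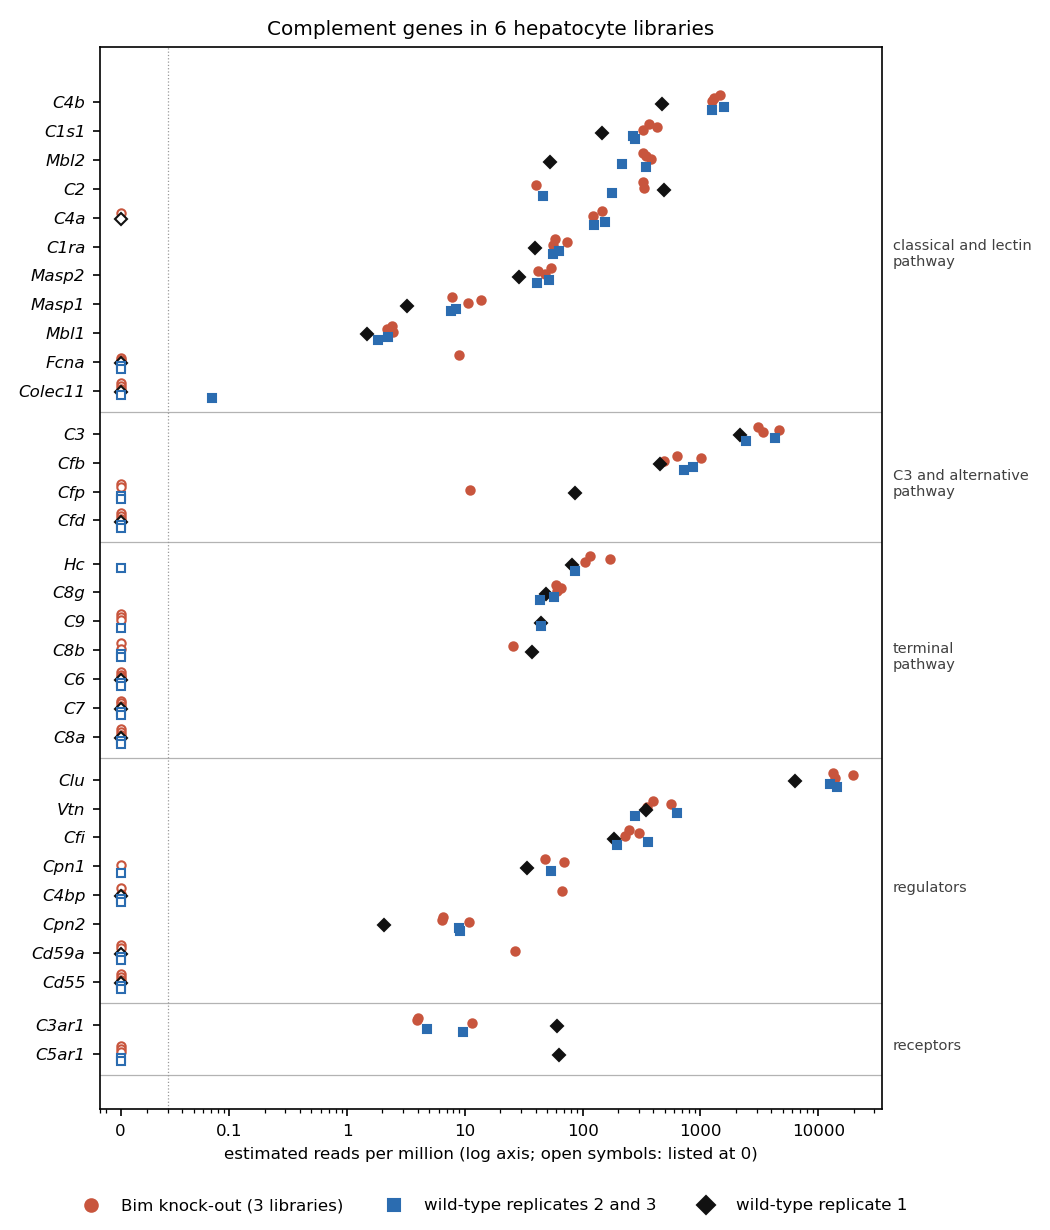
RPM (log axis) of the 32 complement genes, grouped by role, with 1 symbol per library and open symbols for values listed at 0. Circles are the 3 knock-out libraries and squares wild-type replicates 2 and 3. Wild-type replicate 1 (diamonds) is the lowest library for 12 of the 16 fully read genes and the highest for C2 and C3ar1.

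No complement gene passed the genotype test. Of the 26 members with a mean of at least 1 RPKM, 0 were called by limma on log2(RPKM + 1) (adjusted p of at least 0.941, Benjamini-Hochberg over 11021 genes), where 87 genes (0.789%) were called over the whole table. Each of these 87 was listed at 0 in at least 1 library, since 0 of the 5538 fully read genes in that fit were called. At an unadjusted p below 0.05 there were 0 of the 26 members, against 1.89% of all genes tested. Fitted over the fully read genes alone, 0 of 16 members were called (0% of all such genes) and 0 had an unadjusted p below 0.05 (2.35% of all). Among the 16 fully read members, 14 had a positive difference between knock-out and wild-type and 2 a negative one. Over all 5538 fully read genes tested, 50.2% were positive. The median of the 16 was 0.25 on the log2 scale, against 0.0013 over those 5538 genes. Without wild-type replicate 1 the median of the 16 was 0.04, with 9 positive and 7 negative differences, against 0.02 over all fully read genes. Without that library 56.3% of all fully read genes were positive.

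The same 16 genes were compared in RPM, because RPKM summed over transcripts also depend on which transcript the reads were assigned to. limma on log2(RPM + 1) over the 5512 fully read genes with a mean of at least 1 RPM gave 0 calls (0%). An unadjusted p below 0.05 was reached by 1 member, C1s1, and by 1.22% of all genes. In that fit 15 of the 16 members had a positive difference, against 53.5% of all genes, with a median of 0.30 against 0.01 over all genes. Without wild-type replicate 1 these were 11 of 16, near the 66.8% of all genes, and a median of 0.10 against 0.04 over all genes. There C1s1 was again the 1 member with an unadjusted p below 0.05 (1.45% of all genes). The 95% interval stayed between a halving and a doubling of RPM + 1 for 7 of the 16 (4820 of the 5512 genes), and without wild-type replicate 1 it did so for 14, where 5194 of the 5512 genes did.

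**Figure D2:**
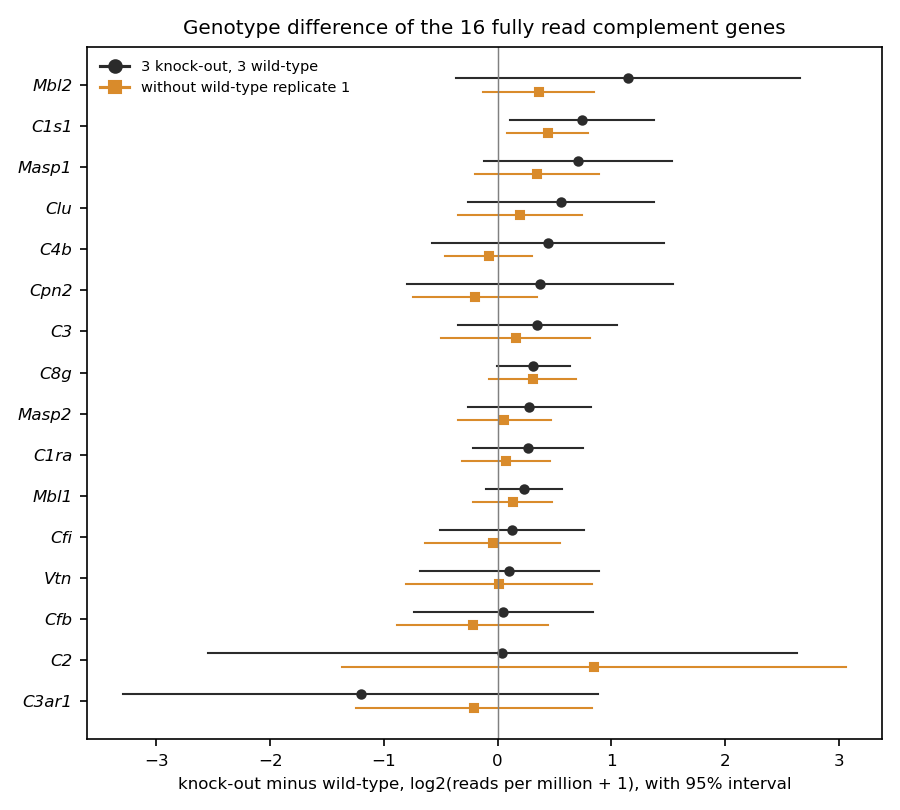
Knock-out minus wild-type on log2(RPM + 1) for the 16 fully read complement genes, with 95% intervals from limma, for all 6 libraries (circles) and without wild-type replicate 1 (squares). The Mbl2 difference is 1.14 with all libraries and 0.36 without that library, and only the C1s1 interval lies above 0 in both fits. Both fits were chosen after seeing the data. On log2(RPKM + 1) over all genes tested, the C1s1 interval ran from -0.083 to 1.535.

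The classical pathway starts with the C1 complex, whose proteases C1r and C1s are encoded by C1ra and C1s1. C1s1 (ENSMUSG00000038521, chromosome 6 from 124530345 to 124542359 on the minus strand of GRCm38) had 369, 426 and 329 RPM in knock-out, against 146, 269.8 and 279.5 RPM in wild-type replicates 1 to 3. All 3 knock-out libraries lay above all 3 wild-type libraries. Such a separation was seen for 2 of the 16 fully read members (C1s1 and C8g), against 3.77% of the 5512 genes. The limma difference of C1s1 on log2(RPM + 1) was 0.74 (SE 0.26, unadjusted p = 0.0278, adjusted p = 0.999), and 0.44 without wild-type replicate 1 (unadjusted p = 0.0211, adjusted p = 1). On log2(RPKM + 1) it was 0.73 (SE 0.31, adjusted p = 0.941), and 0.41 (SE 0.18) without wild-type replicate 1, so the difference of C1s1 did not pass over all genes on either scale.

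Neighbouring genes bear on the C1s1 values. The antisense gene Gm16567 overlaps it on the opposite strand, and its groups did not overlap either, at 24.1, 27.5 and 20.8 RPM in knock-out, against 9.41, 17.9 and 18.1 RPM in wild-type. Its levels ranked the 6 libraries in the same order as those of C1s1. The sources used here do not state whether reads were counted by strand, so reads of the pair cannot be told apart. The separation of Gm16567 is thus not a second, independent one. Of the 50-base words in the C1s1 transcript with the most reads, 39.5% also occur in transcripts of other genes, 24.6% in those of its copy C1s2, which was listed at 0 in all 6 libraries. Reads that could come from either copy are therefore uncertain.

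C1ra lies next to C1s1 on chromosome 6 (124512405 to 124523443, plus strand) and has a single annotated transcript. It had 58.4, 74.0 and 56.2 RPM in knock-out, against 39.4, 62.8 and 55.8 RPM in wild-type, so the groups overlapped. The limma difference on log2(RPM + 1) was 0.27 (SE 0.20), and 0.07 without wild-type replicate 1. C1ra shares 48.0% of its 50-base words with its copy C1rb, which stood at 14.9, 18.7 and 14.4 RPM in knock-out, against 10.3, 16.8 and 13.4 RPM in wild-type.

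C4 is cleaved by C1s and by the lectin pathway protease MASP-2, and mice carry a pair of C4 genes. C4b (chromosome 17 from 34728380 to 34743882, minus strand) makes complement C4, and the product of C4a (34809092 to 34823464, minus strand) is known in mouse as sex-limited protein. The coordinates are those of GRCm38. The reference transcripts of the pair (5371 bases for C4a, 5379 for C4b) align over 5367 bases with 207 mismatches, an identity of 96.1%, and their longest identical run is 433 bases. The window of 120 bases with the most mismatches (19, in capitals) is shown because only such differences let a read be placed on one gene; it covers transcript positions 2695 to 2814 of C4a and 2701 to 2820 of C4b, written in transcript direction.
C4a: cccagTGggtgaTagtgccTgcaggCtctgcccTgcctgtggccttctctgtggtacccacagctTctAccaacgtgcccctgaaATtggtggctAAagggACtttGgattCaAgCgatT
C4b: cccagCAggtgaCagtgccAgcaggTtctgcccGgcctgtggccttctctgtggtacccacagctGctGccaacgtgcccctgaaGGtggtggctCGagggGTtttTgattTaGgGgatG

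C4b had 1479, 1312 and 1249.6 RPM in knock-out, against 476, 1588 and 1267 RPM in wild-type. Wild-type replicate 1 was the low library and the other 5 lay within 1.27 times of each other. The limma difference of C4b on log2(RPM + 1) was 0.45 (SE 0.43, adjusted p = 0.999), and -0.08 (SE 0.16) without wild-type replicate 1, so its direction turned on that library. C4a had 146, 0 and 122 RPM in knock-out, against 0, 155 and 126 RPM in wild-type, with 1 library of each group listed at 0. Its reads were assigned to 4 transcripts of 526 to 932 bases, which the annotation classes as retained introns. Of the 50-base words in the C4b transcript with the most reads 35.2% also occur in C4a transcripts, so the division of reads between C4a and C4b is uncertain.

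C2 is the protease of the classical and lectin C3 convertase, and Cfb (factor B) is its counterpart in the alternative pathway. The genes are neighbours on the minus strand of chromosome 17 of GRCm38 (C2 from 34862604 to 34898265, Cfb from 34856374 to 34862518) and share 1 locus of 19 transcripts in the files. The locus as a whole had 961, 1046 and 827 RPM in knock-out, against 942, 1050.1 and 766 RPM in wild-type, a range of 1.37 times from the highest to the lowest library. C2 alone had 324, 40.2 and 332 RPM in knock-out, against 487, 177 and 46.1 RPM in wild-type, a range of 12.1 times. The share of the locus assigned to C2 was 33.7%, 3.84% and 40.2% in knock-out, against 51.7%, 16.8% and 6.02% in wild-type. Cfb had 637, 1006 and 495 RPM in knock-out, against 455, 874 and 719.9 RPM in wild-type. Both groups held libraries with a high and with a low C2 share, and the groups overlapped for either gene.

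The limma difference on log2(RPM + 1) was 0.04 (95% interval -2.55 to 2.63) for C2, and 0.85 (95% interval -1.37 to 3.06) without wild-type replicate 1. For Cfb it was 0.05 (95% interval -0.74 to 0.84), and -0.22 without wild-type replicate 1. On log2(RPKM + 1) the Cfb difference was -0.19, and -0.22 without wild-type replicate 1. With all libraries its sign differed between the scales. Gm20547, annotated across both genes, shares 81.8% of the 50-base words of the most-read Cfb transcript and 67.5% of those of C2. Gm20547 was listed at 0 in all 6 libraries.

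**Figure D3:**
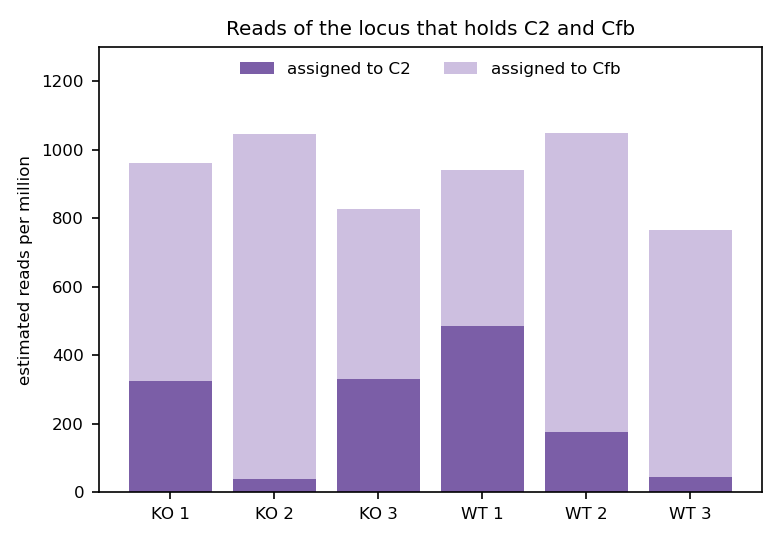
RPM of the shared locus in each library, split into the part assigned to C2 (dark) and to Cfb (light). The bar heights stay between 766 and 1050.1 RPM, while the C2 part covers 3.84% to 51.7% of a bar.

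The lectin pathway recognises sugars through the mannose-binding lectins Mbl1 and Mbl2, the ficolin Fcna and the collectin Colec11, and acts through the proteases Masp1 and Masp2. Mbl2 (chromosome 19 from 30232928 to 30239685, plus strand of GRCm38, 1 transcript) had 328, 348 and 380.5 RPM in knock-out, against 52.9, 216 and 346 RPM in wild-type. Its level in wild-type replicate 1 was 6.55 times below the median of the other 5 libraries. By limma, Mbl2 differed on log2(RPM + 1) by 1.14 (SE 0.63, adjusted p = 0.999), and 0.36 (SE 0.21) without that library. Mbl1 was low throughout, at 2.41, 2.17 and 2.45 RPM in knock-out, against 1.49, 2.25 and 1.85 RPM in wild-type. These values cover 1 transcript, the only one listed for Mbl1, which the annotation classes under nonsense-mediated decay (breakdown of RNA with an early stop). The Mbl1 difference on log2(RPM + 1) was 0.23 (SE 0.14), and 0.13 (SE 0.15) without wild-type replicate 1. On the RPKM scale Mbl2 averaged 437 ± 20.1 in knock-out, against 258 ± 184 in wild-type (SD, n = 3 each). Mbl1 averaged 3.47 ± 0.18 RPKM in knock-out, against 2.79 ± 0.65 RPKM in wild-type (SD, n = 3 each).

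Masp1 had 7.72, 13.7 and 10.7 RPM in knock-out, against 3.26, 8.48 and 7.61 RPM in wild-type, where knock-out replicate 1 lay between the wild-type libraries. By limma, Masp1 differed on log2(RPM + 1) by 0.71 (SE 0.35), and 0.34 (SE 0.23) without wild-type replicate 1. Masp2 had 54.1, 41.9 and 48.2 RPM in knock-out, against 28.7, 51.7 and 40.7 RPM in wild-type, with differences of 0.28 (SE 0.23) and 0.06 (SE 0.17). Masp2 overlaps Tardbp on the opposite strand and shares 57.2% of its 50-base words with transcripts of that gene. Tardbp stood at 182, 163 and 251 RPM in knock-out, against 373, 182 and 241 RPM in wild-type, so it was highest in the library where Masp2 was lowest.

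Fcna, which Kupffer cells are known to make, had 8.85 RPM in knock-out replicate 1 and was listed at 0 in the other 5 libraries, wild-type replicate 1 included. Colec11 had 0.0711 RPM in wild-type replicate 3 and was at 0 elsewhere. Fcna has 2 annotated transcripts and Colec11 has 1. These recognition genes thus gave no level that could be compared between genotypes.

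C3, the component on which all routes converge (chromosome 17 from 57203970 to 57228136, minus strand of GRCm38), had 3094, 4611 and 3369 RPM in knock-out, against 2185, 4321 and 2459.5 RPM in wild-type. The groups overlapped, with knock-out replicate 2 and wild-type replicate 2 as the high libraries. The limma difference of C3 on log2(RPM + 1) was 0.35 (SE 0.29, 95% interval -0.35 to 1.05), and 0.16 (SE 0.28) without wild-type replicate 1. On the RPKM scale C3 averaged 3878 ± 2451 in knock-out, against 3181 ± 946 in wild-type (SD, n = 3 each), a wider spread within knock-out than the reads show.

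That spread followed a short transcript of 315 bases. It received 17712, 32323 and 3053 reads in knock-out, against 13454, 22554 and 14472 in wild-type. Its RPKM were 2779, 5178 and 504 in knock-out, against 2039, 3269 and 2237 in wild-type. The full transcript of 5136 bases (ENSMUST00000024988) held 79.7%, 69.9% and 90.7% of the C3 reads in knock-out, against 77.3%, 83.2% and 79.1% in wild-type, and measured 671, 877 and 783 RPKM in knock-out against 443, 995 and 519 RPKM in wild-type.

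**Figure D4:**
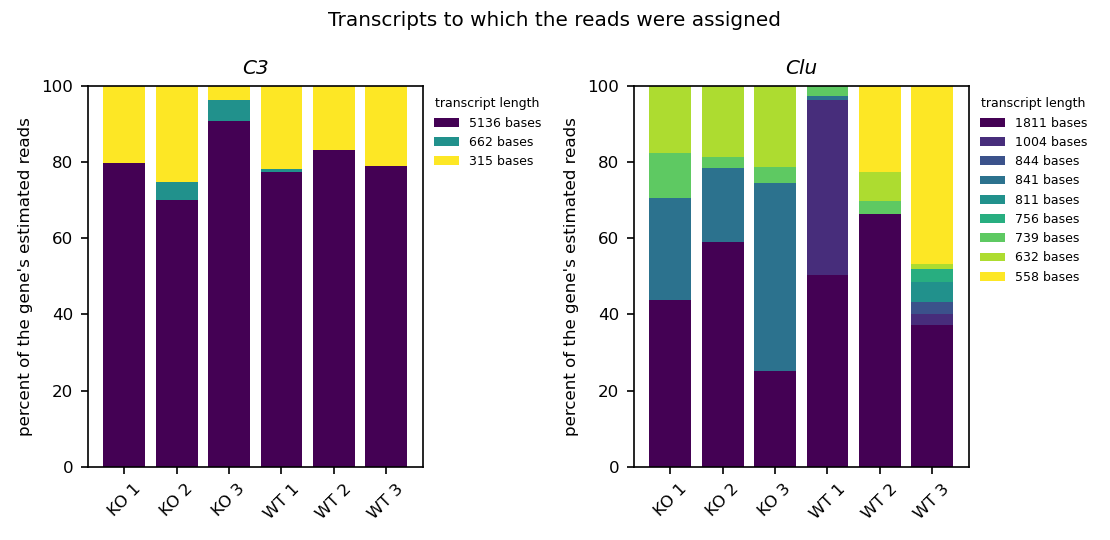
Percent of the estimated reads of C3 (left) and Clu (right) assigned to each annotated transcript, by library, with transcripts named by their length. The 5136-base transcript holds 69.9% to 90.7% of C3 reads, while the reads of Clu spread over 9 transcripts, which differ from library to library.

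The other alternative pathway genes were read in few libraries. Cfd, the protease factor D (adipsin) that fat cells make in quantity, was listed at 0 in all 6 libraries at a locus with a single transcript. The count of exact zeros covered only loci read in at least 3 libraries, so it does not bear on Cfd. Cfp, properdin, which stabilises the alternative convertase and is known from myeloid cells, had 0, 0 and 11.1 RPM in knock-out, against 85.6, 0 and 0 RPM in wild-type. The highest value of Cfp was in wild-type replicate 1, the library with the highest macrophage markers, and their part in this value was not tested.

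In the terminal pathway only C8g was fully read, 1 of 7 genes. C8g, the gamma chain of C8 (chromosome 2 from 25498651 to 25501719, minus strand of GRCm38), had 59.7, 65.9 and 61.0 RPM in knock-out, against 49.3, 57.6 and 43.5 RPM in wild-type. The knock-out libraries all lay above the wild-type ones, and wild-type replicate 3, not 1, was the lowest. The limma difference on log2(RPM + 1) was 0.31 (SE 0.13, unadjusted p = 0.0540, adjusted p = 0.999) with all libraries and 0.31 (SE 0.16, unadjusted p = 0.0977) without wild-type replicate 1. C8g was the member whose difference changed least when that library was left out. Its neighbour Fbxw5 overlaps it on the opposite strand, with 55.1, 0 and 0 RPM in knock-out, against 51.0, 0 and 0 RPM in wild-type.

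Hc, the gene of C5, had 116, 172 and 104 RPM in knock-out, against 81.2, 0 and 86.0 RPM in wild-type. Wild-type replicate 2 was listed at 0 although it was among the higher libraries for C3 and Cfb. The 2 wild-type libraries above 0 lay below all 3 knock-out libraries, but how often partly read genes separate so was not counted. The limma adjusted p of Hc was 0.941. C9, which forms the wall of the membrane pore, was at 0 in all knock-out libraries and had 44.2, 44.2 and 0 RPM in wild-type. Its limma adjusted p was 0.941 with all libraries and 0.00522 without wild-type replicate 3. In the latter fit 182 of the 11021 genes were called, and C9 was the 1 member among them. Leaving out that library removed the wild-type value of C9 listed at 0. The knock-out values of 0, at a gene with 4 transcripts, can be failed estimates. The adjusted p of C9 over the alternatives ran from 0.00522 to 1. C8b had 0, 25.7 and 0 RPM in knock-out, against 37.2, 0 and 0 RPM in wild-type.

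C6, C7 and C8a were listed at 0 in all 6 libraries. C7 has 1 annotated transcript, C6 has 5 and C8a has 4. C8a and C8b, which encode the alpha and beta chains of C8, lie side by side on opposite strands of chromosome 4, and only C8b was read, in 2 libraries.

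Among the regulators Clu, the gene of clusterin, which binds the terminal complex in plasma, was the most abundant complement transcript. Clu measured 18452, 24641 and 20603 RPKM in knock-out, against 6703, 16653 and 24630 RPKM in wild-type, beside 23413, 31593 and 18937 RPKM of Alb in knock-out, against 16508, 35550 and 15024 RPKM in wild-type. Short transcripts held much of this summed RPKM, such as 16666 for a 558-base transcript in wild-type replicate 3. In knock-out replicate 3 an 841-base transcript held 10783 RPKM. In RPM, Clu stood at 13239, 19820 and 13988 in knock-out, against 6344, 12497 and 14497 in wild-type. Alb was above Clu in RPM in every library, at 34113, 46028 and 29260 in knock-out, against 24895, 50868 and 22306 in wild-type. By limma, Clu differed on log2(RPM + 1) by 0.56 (SE 0.34, adjusted p = 0.999), and 0.20 (SE 0.23) without wild-type replicate 1, the low library. The transcript with the most Clu reads over all libraries, of 1811 bases, held 43.9%, 59.1% and 25.3% of the reads in knock-out, against 50.5%, 66.5% and 37.3% in wild-type.

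Vtn, vitronectin, another plasma inhibitor of the terminal complex, had 393, 559 and 349 RPM in knock-out, against 348, 638 and 278 RPM in wild-type. Wild-type replicate 1 did not stand apart here, and the difference was 0.10 (SE 0.33). Cfi, factor I, the protease that inactivates C3b and C4b, had 249.9, 302 and 228 RPM in knock-out, against 186, 357 and 198 RPM in wild-type, with a difference of 0.13 (SE 0.26, 95% interval -0.50 to 0.76). Without wild-type replicate 1 the difference was 0.01 for Vtn and -0.04 for Cfi, both on log2(RPM + 1).

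Carboxypeptidase N, which inactivates the C3a and C5a fragments, is built of the chains Cpn1 and Cpn2. Cpn2 had 6.59, 6.43 and 10.9 RPM in knock-out, against 2.05, 8.99 and 9.10 RPM in wild-type. The limma difference of Cpn2 on log2(RPM + 1) was 0.37 (SE 0.49), and -0.20 (SE 0.23) without wild-type replicate 1, so its direction turned on that library. Cpn1 had 48.1, 69.8 and 0 RPM in knock-out, against 33.8, 54.0 and 0 RPM in wild-type. C4bp, a plasma cofactor of factor I, had 66.7 RPM in knock-out replicate 2 and was listed at 0 elsewhere. Cd59a, a membrane inhibitor of the pore, had 26.9 RPM in knock-out replicate 3 and was at 0 elsewhere, and Cd55, which speeds the decay of convertases on cell surfaces, was at 0 in all 6.

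The receptors went the other way in wild-type replicate 1. C3ar1, the receptor of C3a (chromosome 6 from 122847138 to 122856161, minus strand of GRCm38, 1 transcript), had 4.04, 3.90 and 11.5 RPM in knock-out, against 61.0, 4.75 and 9.60 RPM in wild-type. In wild-type replicate 1 C3ar1 was 12.8 times the median of the other 5 libraries, which overlapped between genotypes. The limma difference of C3ar1 on log2(RPM + 1) was -1.20 (SE 0.87, adjusted p = 0.999), and -0.21 (SE 0.45) without that library. C5ar1, the receptor of C5a, had 62.8 RPM in wild-type replicate 1 and was listed at 0 in the other 5. Macrophage markers moved with both receptors, as given above, and their part in these values was not tested.

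**Figure D5:**
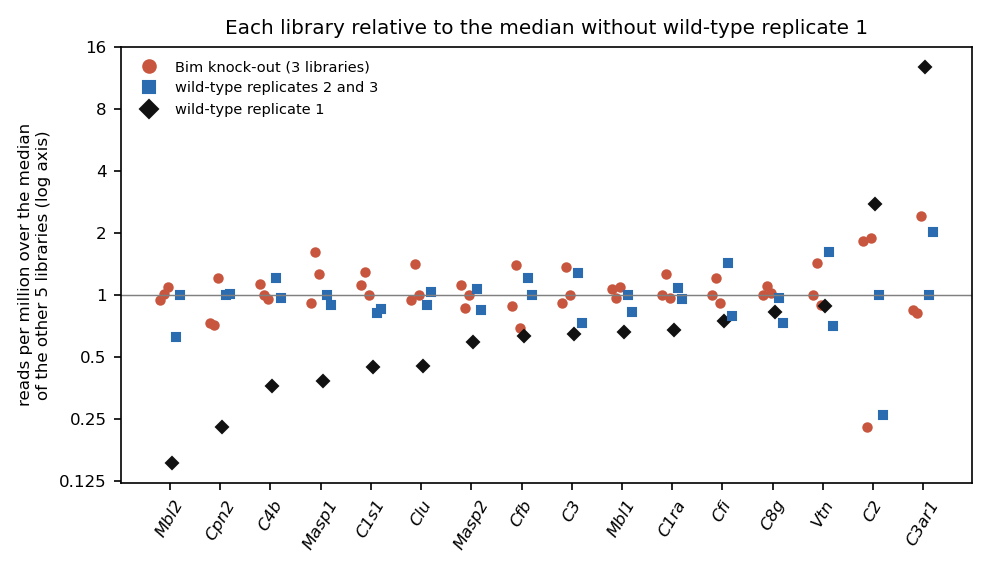
RPM of the 16 fully read complement genes in each library, divided by the median of the 5 libraries other than wild-type replicate 1 (log axis). Wild-type replicate 1 (diamonds) runs from 6.55 times below that median for Mbl2 to 12.8 times above it for C3ar1, and the low and high values of C2 come from several libraries.

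Set side by side, the 16 fully read genes differed in how far wild-type replicate 1 fell from the rest. Of them 12 were lowest in that library in RPM, where 19.6% of the 6920 fully read genes of the series were. Mbl2 (6.55 times below the median of the other 5), Cpn2 (4.38 times), C4b (2.75 times), Masp1 (2.60 times), C1s1 (2.25 times) and Clu (2.21 times) were furthest below. Cfi (1.34 times), C8g (1.21 times) and Vtn (1.13 times) were nearest to it. Apart from C2 and C3ar1, the other 5 libraries spanned 1.27 times (C4b) to 2.29 times (Vtn) from the highest to the lowest. The level summed over all 32 genes was 20624, 28967 and 21185 RPM in knock-out, against 11211, 21386 and 20471 RPM in wild-type, with wild-type replicate 1 the lowest and knock-out replicate 2 the highest.

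Promoters were matched in RefSeq sequences (GRCm38.p6, 250 bases before to 50 after the gene start) for 25 of the 32 genes. The promoters of C1s1 and C3 are shown because C1s1 is the member nearest to a genotype difference and C3 the component that all routes share. The letters TTGCNNAA, a short form of the site of C/EBP factors, which drive many acute phase genes of the liver, were searched on both strands and stand in capitals where found. Both sequences run in gene direction on the minus strand, C1s1 from chr6:124542310-124542609 and C3 from chr17:57228087-57228386.
C1s1: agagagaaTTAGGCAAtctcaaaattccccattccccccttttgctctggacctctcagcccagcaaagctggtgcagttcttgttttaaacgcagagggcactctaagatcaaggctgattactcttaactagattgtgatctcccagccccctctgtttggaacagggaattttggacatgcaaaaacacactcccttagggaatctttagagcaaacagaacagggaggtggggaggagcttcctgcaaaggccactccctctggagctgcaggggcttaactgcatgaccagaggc
C3: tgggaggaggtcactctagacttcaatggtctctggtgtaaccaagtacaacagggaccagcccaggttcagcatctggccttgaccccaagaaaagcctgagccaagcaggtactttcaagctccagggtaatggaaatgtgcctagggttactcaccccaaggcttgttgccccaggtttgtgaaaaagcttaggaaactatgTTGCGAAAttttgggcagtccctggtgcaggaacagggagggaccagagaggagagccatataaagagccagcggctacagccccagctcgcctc

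These letters were found in the promoters of 5 of the 25 genes (C1ra, C1s1, C3, C9 and Cpn2) and in 10.8% of all 32851 promoters of the table. In C3 they began 45 bases before the gene start and in C1s1 242 bases before it. The 9 letters GGGANTTCC, a single variant of the NF-kappaB site, were found for 0 of 25, against 1.68% of all promoters. Other variants, longer ones included, were not searched, so the 0 does not show that these promoters lack such a site. Members were counted by gene and the background by promoter, so these shares are in unlike units. A match describes the letters only.

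Of 27 other genes of the pathway or of its links to coagulation, 17 were tested and 0 passed in either direction (limma, adjusted p of at least 0.941, against 0.789% of all genes called; at an unadjusted p below 0.05 there were 0 of the 17). Their median difference on log2(RPKM + 1), genes listed at 0 in some libraries included, was -0.85, against -0.01 over all genes tested. Over the 8 fully read ones it was -0.09 with all libraries and 0.04 without wild-type replicate 1, so its sign turned on that library. Without it 6 differences were positive and 2 negative, where 56.3% of all fully read genes were positive. Of the 27 genes 9 were highest in wild-type replicate 1, as all 12 macrophage markers were, and C1qa, C1qb, C1qc and Vsig4 stand on both lists. The part of the macrophage markers in these values was not tested. The 2 genes with the smallest p were listed at 0 in some libraries. Cr1l, a membrane regulator, had 273, 122 and 0 RPKM in knock-out, with 0 in every wild-type library. Serping1, the inhibitor of C1r, C1s and the MASP proteases, was at 0 in every knock-out library and had 123, 489 and 0 RPKM in wild-type. C1qa had 5.70, 5.63 and 14.4 RPKM in knock-out, against 171, 5.62 and 11.9 RPKM in wild-type. C1qb differed by -1.38 with all libraries and by 0.03 without wild-type replicate 1, and Cd93 by -0.81 and 0.03, on log2(RPKM + 1). C1qa, C1qb and Cd93 were named after their values were seen.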

How the data were processed

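Per the labels, polyadenylated RNA of hepatocytes was sequenced as single-end libraries, and groups and replicate numbers were taken from the sample titles. The submitters' processing notes name TopHat2 (version 2) and the mouse build GRCm38 (mm10). No source used here names the program that divided reads among transcripts. Each deposited file lists, for 118492 transcripts, an estimated read count that need not be whole and an RPKM value made by the authors, as other text attributes with no score of their own. Both were summed per gene, and symbols were found for 47993 of 48353 genes. RPM were computed as estimated reads per 1000000 estimated reads of a library.

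Genes averaging 1 RPKM or more were tested on log2(RPKM + 1) of the deposited RPKM with limma 3.58.1 in R 4.3.3 (lmFit, eBayes with trend, two-sided, all 6 libraries, no covariate), and called at a Benjamini-Hochberg adjusted p below 0.05. Such a difference understates the change of low genes. The fit was tested on simulated data. Depth limits precision, and counting error was not modelled for estimated reads. Alternatives covered pseudocount, filter, scaling, reads in place of RPKM, voom, replicate block, threshold and left-out libraries. The fits on RPM of fully read genes, and those on fully read genes or RPM without wild-type replicate 1, or without knock-out replicate 1 and wild-type replicate 2, were chosen after seeing the data.

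All 32 members were named by the list, with values of every library for each gene read in any library. Other pathway genes were named if called or among the 2 smallest p. Genes overlapping a member were named where they share a locus or reads. Members and lists were chosen with earlier results of these data known. Shared words of 50 bases were counted in GENCODE M21 transcripts on both strands. Python 3.11.15, pandas 2.3.3, numpy 2.4.6 and matplotlib 3.10.9 were used.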

Additional observations from a re-analysis of the deposited data

How the results depend on the processing

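The number of genes called over the whole table was 87, and it was 0 where only genes above 0 in all 6 libraries were tested, on RPKM or on RPM and with or without wild-type replicate 1. It was 182 to 207 with any 1 library left out, and 312 without the 2 libraries high in interferon genes (knock-out replicate 1 and wild-type replicate 2). With the replicate block it was 0. The deviations of same-numbered libraries from their group means correlated at -0.158, -0.049 and -0.005 over the fully read genes. With 3 libraries per group these values cannot decide whether the replicate numbers pair the samples. Complement members called were 0 in every alternative except without wild-type replicate 3, where C9 passed (0 to 1 over left-out libraries). In the main fit 0 of its 5538 fully read genes were called, so each of the 87 was listed at 0 in at least 1 library. What caused the shifts in these counts was not tested.

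The median difference of the fully read members was 0.25, and it stayed positive in every alternative run, from 0.04 (without wild-type replicate 1) to 0.45 (without wild-type replicate 2). Of single members, Cfb turned to 0.0490 on RPM (all genes or fully read genes) and 0.0544 with voom. Without wild-type replicate 1, C3 (-0.0343), C4b (-0.16), Cfi (-0.0702), Cpn2 (-0.18) and Vtn (-0.0148) turned negative, with the same values over fully read genes, and in RPM without it C4b (-0.0781), Cfi (-0.0427) and Cpn2 (-0.20) did. C2 was -0.28 without the 2 libraries high in interferon genes. Over the left-out libraries the difference ran from -0.94 to 1.49 for C2, -0.37 to 0.61 for C3, -0.16 to 0.80 for C4b, -0.0702 to 0.43 for Cfi, -0.18 to 0.44 for Cpn2 and -0.17 to 0.46 for Vtn. None of these passed the test in any setting run. Depth limits low members such as Colec11, with 2 reads in 1 library.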

Other observations

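Interferon response genes stood high in 1 library of each genotype. The summed level of 17 of them was 4233, 491 and 643 RPKM in knock-out replicates 1 to 3 and 603, 3843 and 541 RPKM in wild-type replicates 1 to 3. Of the 16 fully read complement genes, 2 (C4b and Masp2) had their 2 highest levels in these same libraries, knock-out replicate 1 and wild-type replicate 2, as did 4.73% of the 6920 fully read genes of the series. C4b had 1479 RPM in the first and 1588 RPM in the second, within the range of 1.27 times over all libraries but wild-type replicate 1. Whether interferon levels had a part in these values was not tested.

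Acute phase genes had summed levels over 14 genes of 13896, 20339 and 13896 RPKM in knock-out, against 14006, 20304 and 14715 RPKM in wild-type, highest in replicate 2 of each genotype. C1ra, C3, Cfb, Cfi and Vtn (5 of the 16) had their 2 highest levels in those libraries too, as did 2.62% of the 6920 genes. The hepatocyte markers summed to 28952, 36248 and 22553 RPKM in knock-out, against 19158, 43283 and 18727 RPKM in wild-type, also highest in replicate 2 of each genotype. Most of this sum was Alb, at 23413, 31593 and 18937 RPKM in knock-out. Within knock-out, Fga, Serpina1a and Cyp2e1 were also highest in replicate 2, but Ttr, Apoa1, Fgb, Ahsg, Cps1 and Hnf4a in replicate 1. Within wild-type, Hnf4a was highest in replicate 3, Cyp2e1 in replicate 1 and the other markers in replicate 2. The part of either list in the complement values was not tested.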
